A study of Mus musculus with 4 samples.

Results

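Immediate early genes are switched on within minutes of a stimulus, without new protein being made first. Their messages are short-lived and their products act on a later wave of genes. Serum response factor with its ETS partners, CREB and the MAP kinases drive many of them. In heart tissue they are known to respond to stretch, injury and growth factors, and also to the enzymes and handling used to bring cells into suspension. The 10 genes described here were chosen by name among 29245 measured genes. They are the AP-1 subunits Fos, Fosb, Jun, Junb and Jund, the CREB-family factor Atf3, the zinc-finger factors Egr1 and Klf4, and the early response genes Ier2 and Ier3. All 10 passed the filter on low counts in every comparison that was made.

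The groups were hearts of 2 KO mice (KO1 and KO2), deficient in Mst1 and Mst2 (core kinases of the Hippo pathway), and of 2 wild-type mice (WT1 and WT2), all C57BL/6. The labels do not give the allele, the cells that lost the genes, an injury or an age. Cells were brought into suspension, centrifuged at low speed to part a cardiomyocyte (CM) fraction from a non-cardiomyocyte (NCM) fraction, and spread over chips with 1 barcode per well. Each of the 4 chips held a single genotype and a single fraction, so genotype and chip cannot be told apart within a fraction, and fraction and chip cannot be told apart within a genotype. The animal was the replicate. With 2 animals against 2, an exact permutation test can give no p below 0.333, so tests come from a fit across all genes (edgeR's quasi-likelihood test, Benjamini-Hochberg adjusted p, called below 0.05).

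A well entered with 10000 UMIs or more and 300 genes or more, as 3990 of 4275 did. Between 210 and 747 wells remained per animal and fraction, with 13126144 to 93816921 UMIs outside mitochondrial and haemoglobin genes. A level is given in UPM, UMIs of a gene per 1000000 of those UMIs. Cardiomyocyte markers took 2.55 to 6.35% of those UMIs in CM wells of each animal, against 0.0928 to 0.476% in NCM wells. The counts did not settle the genotype labels. Stk4, which encodes MST1, had 45.8 and 37.5 UPM in KO NCM wells against 53.1 and 47.3 in WT NCM wells, and its values overlapped between genotypes in CM wells. Stk3, which encodes MST2, overlapped in both fractions. Counts over a whole gene may lie outside a deleted part, so KO names the label throughout. Mitochondrial UMIs took 58.1 and 36.5% in KO NCM wells against 7.45 and 11.2% in WT NCM wells, and 47.2 and 36.4% in KO CM wells against 38.1 and 35.7% in WT CM wells. The 20 negative control wells held 6 UMIs of the 10 genes among 5910. No undissociated tissue was among the samples, so the part of dissociation in these levels was not tested.

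Promoter sequences are shown as a description, and only for the 4 genes that hold the letters TGACG within 150 bases before the start. Their part in the member levels was not tested. RefSeq gives 300-base windows on GRCm38.p6, from 250 bases before the start to 50 after it, and 8 members were matched (Egr1 and Ier2 were not). The stretches below are the 150 bases before each start, read 5′ to 3′ on the gene's own strand. They lie at chr12:85473740-85473889 on the plus strand (Fos), and on the minus strand at chr7:19310046-19310195 (Fosb), chr8:84978749-84978898 (Junb) and chr1:191183334-191183483 (Atf3). Capitals mark TGACG on either strand (the core of the cAMP response element), TATAAA and GCGNGGGCG (an EGR-type motif).
Fos: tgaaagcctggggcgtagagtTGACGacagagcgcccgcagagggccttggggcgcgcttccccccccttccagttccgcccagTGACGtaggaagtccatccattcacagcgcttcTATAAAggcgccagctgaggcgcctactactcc
Fosb: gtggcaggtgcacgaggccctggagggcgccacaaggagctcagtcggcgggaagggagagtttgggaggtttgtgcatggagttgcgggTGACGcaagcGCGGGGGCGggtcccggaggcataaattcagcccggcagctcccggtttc
Junb: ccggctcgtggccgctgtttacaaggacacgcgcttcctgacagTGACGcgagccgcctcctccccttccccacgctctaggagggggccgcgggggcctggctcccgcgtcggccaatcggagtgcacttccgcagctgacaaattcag
Atf3: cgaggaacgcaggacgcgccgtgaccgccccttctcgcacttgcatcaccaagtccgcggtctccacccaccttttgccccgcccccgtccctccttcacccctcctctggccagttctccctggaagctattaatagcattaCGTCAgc

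In the full 300-base windows, searched on both strands, TGACG was found in 5 of the 8 members (Fos, Fosb, Junb, Atf3 and Klf4) and in 20.8% of all 32851 promoter windows. TATAAA was found in 2 members (Fos and Junb) and in 13.6% of all windows. GCGNGGGCG was found in 2 members (Fosb and Klf4) and in 5.55% of all windows. The complete element TGACGTCA, which contains TGACG, the AP-1 motif TGANTCA and the CArG box of serum response factor were in 0 of the 8 members and in 1.79, 7.81 and 1.63% of all windows. Sites outside these windows were not searched, and Egr1 and Ier2 had no window, so a count of 0 covers these stretches only. The RefSeq start may not be the one used in these cells. In Jund it lies at 70697739 on chromosome 8, upstream of the GENCODE gene at 70698949 to 70700616.

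By the GENCODE annotation of the same build, 6 members overlap no other annotated gene. These are Fos (chromosome 12, 85473890 to 85477273), Fosb (chromosome 7, 19302696 to 19310051), Egr1 (chromosome 18, 34859823 to 34864984), Ier2 (chromosome 8, 84661331 to 84662852), Ier3 (chromosome 17, 35821684 to 35822923) and Klf4 (chromosome 4, 55527143 to 55532466). The other 4 share bases with a gene on the opposite strand, and the strand setting of the counting is not given in the sources used here, so reads in the shared bases cannot be told apart. Jun (chromosome 4, 95049034 to 95052222) shares 689 bases with the antisense gene Junos. Junb (chromosome 8, 84974484 to 84978718) shares 351 bases at its 3′ end with Prdx2, a peroxiredoxin gene. Jund shares 919 bases with the antisense gene Gm11175, and Atf3 (chromosome 1, 191170296 to 191218039) shares 108 bases with a small RNA gene. Prdx2 was at 589 and 804 UPM in KO CM wells and 728 and 740 in WT CM wells, against 303 and 378 in KO NCM wells and 362 and 317 in WT NCM wells, so it ran opposite to Junb.

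All 10 members were lower in the CM fraction than in the NCM fraction, and 7 were called. The 7 were Fosb, Junb, Jund, Egr1, Ier2, Ier3 and Klf4. Of all 15439 genes tested, 6.61% were called lower in the CM fraction and 9.46% higher, and 30.9% had an unadjusted p under 0.05. For every member the 4 CM values lay below the 4 NCM values, which held for 22.5% of the genes tested. The median log2 difference of the members was -1.10, against -0.22 over all genes tested. Sums over a fraction mix cell classes, so fewer cells of a class with these RNAs and less RNA per cell cannot be told apart in them. The summed level of the 10 was 1578 and 542 UPM in KO CM wells and 1182 and 749 in WT CM wells, against 2922 and 2962 in KO NCM wells and 2463 and 2951 in WT NCM wells.

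Among the AP-1 subunits, Jund, a subunit with steady expression in many cells, differed most. It had 11.7 and 2.71 UPM in KO CM wells and 5.04 and 6.83 in WT CM wells, against 44.6 and 35.9 in KO NCM wells and 24.8 and 34.7 in WT NCM wells. The log2 difference was -2.02 (SE 0.37, adjusted p = 0.00687 by edgeR). Junb had 175 and 51.4 UPM in KO CM wells and 86.0 and 70.1 in WT CM wells, against 350 and 364 in KO NCM wells and 367 and 390 in WT NCM wells. KO1 was the highest CM animal for both genes. The Junb difference was -1.56 (SE 0.29, adjusted p = 0.00707 by edgeR).

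Fosb, a FOS-type subunit that dimerises with JUN proteins, had 26.3 and 10.96 UPM in KO CM wells and 32.6 and 6.89 in WT CM wells, against 70.4 and 73.9 in KO NCM wells and 85.7 and 89.8 in WT NCM wells. Its log2 difference was -1.76 (SE 0.40, adjusted p = 0.0182 by edgeR). Fos, the founding member, had 395 and 130 UPM in KO CM wells and 321 and 175 in WT CM wells, against 695 and 727 in KO NCM wells and 550 and 592 in WT NCM wells. KO1 and WT1 were the higher CM animals, and the log2 difference of -0.91 (SE 0.28) was not called (adjusted p = 0.0576 by edgeR). Jun, the main partner of Fos, had 137 and 54.1 UPM in KO CM wells and 164 and 81.7 in WT CM wells, against 281 and 248 in KO NCM wells and 227 and 305 in WT NCM wells. Its difference of -0.86 (SE 0.28) was not called either (adjusted p = 0.0692 by edgeR).

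Egr1, a zinc-finger factor at the end of the ERK pathway, had 213 and 81.3 UPM in KO CM wells and 183 and 180 in WT CM wells, against 490 and 500 in KO NCM wells and 385 and 598 in WT NCM wells. Its log2 difference was -1.11 (SE 0.26, adjusted p = 0.0200 by edgeR). Klf4, known for its role in endothelial and myeloid cells, had 60.6 and 18.2 UPM in KO CM wells and 34.995 and 31.7 in WT CM wells, against 151 and 110 in KO NCM wells and 69.0 and 142 in WT NCM wells. The Klf4 difference was -1.22 (SE 0.28, adjusted p = 0.0202 by edgeR). Atf3, a stress-induced repressor and activator, had 173 and 74.9 UPM in KO CM wells and 150 and 58.8 in WT CM wells, against 214 and 239 in KO NCM wells and 280 and 291 in WT NCM wells. It differed least, by -0.75 (SE 0.31), and was not called (adjusted p = 0.136 by edgeR).

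Ier2, a small nuclear protein gene, had 201 and 62.7 UPM in KO CM wells and 120 and 78.8 in WT CM wells, against 348 and 388 in KO NCM wells and 275 and 292 in WT NCM wells. Ier3, known as a regulator of cell survival, had 185 and 55.7 in KO CM wells and 85.0 and 58.3 in WT CM wells, against 277 and 276 in KO NCM wells and 199 and 216 in WT NCM wells. Their log2 differences were -1.08 (SE 0.28) and -0.96 (SE 0.27), with edgeR's adjusted p of 0.0303 for Ier2 and 0.0438 for Ier3. KO1 was the highest of the 4 CM animals in 8 of the 10 genes, the others being Fosb and Jun, where WT1 was highest.

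**Figure D1:**
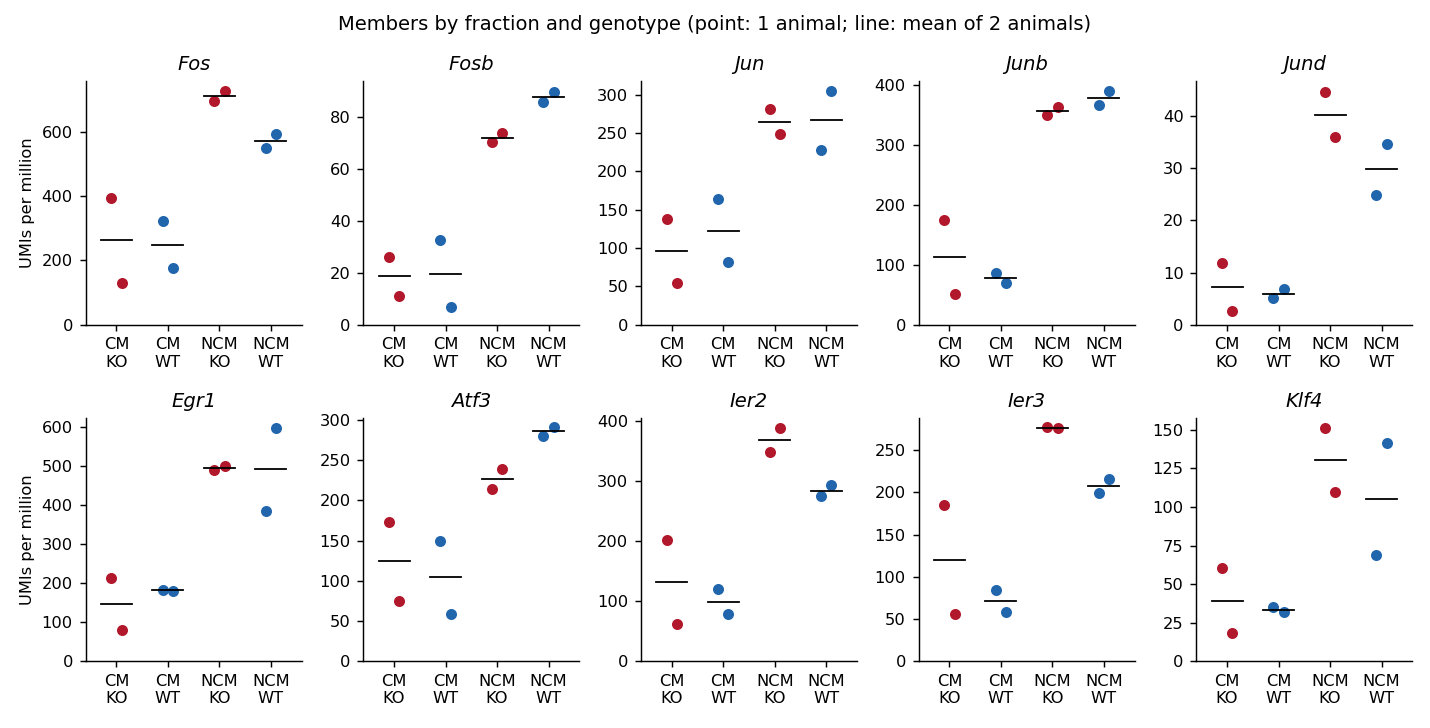
Level of each member in UPM (linear axis from 0) in each of the 4 animals, as CM and NCM fractions of KO (red) and WT (blue) hearts, with a line at the mean of 2 animals. In all 10 panels the 4 CM points lie below the 4 NCM points, and the CM points of KO1 and KO2 lie far apart, as for Fos at 395 and 130.

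The number of calls depended on which wells and animals were used, while all 10 differences stayed below 0 in every setting that was run. Calls over all genes fell as well, and their share called lower is given beside each count. Without KO2 2 members were called (2.37% of all genes), without WT2 2 (2.87%), without WT1 4 (2.69%) and without KO1 7 (6.55%). Within WT animals alone Junb was called (log2 difference -1.73, SE 0.22, adjusted p = 0.00802 by edgeR), where 2.62% of genes were called lower. Within KO animals alone edgeR called 0 of 10 members and 0.107% of genes lower. In wells under 30% mitochondrial UMIs it called 0 of 10 members and 1.16% of genes lower, with member differences between -1.95 for Jund and -0.23 for Jun. That setting left between 18 and 645 wells per animal and fraction.

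The CM chips also held wells of other cell classes, which allowed the fractions to be compared within a class. Clusters were made without the members and the companion genes. A cluster was named where at least 3 fixed markers of a type stood among its 30 leading genes against other wells of the same chips, or, failing that, against all other wells. The comparison within a class was added after the data were seen. In macrophage-like wells 0 of 10 members were called by edgeR, where 0.271% of 9963 genes were called lower in the CM fraction and 1332 genes had an unadjusted p under 0.05. The Fos difference there was -0.01 (SE 0.26, adjusted p = 0.996 by edgeR), with 774 and 636 UPM in KO CM wells and 707 and 478 in WT CM wells, against 896 and 1088 in KO NCM wells and 592 and 624 in WT NCM wells. Ier3 differed by -1.11 (SE 0.27, adjusted p = 0.0834 by edgeR) and Klf4 by -1.14 (SE 0.45, adjusted p = 0.324). These sums rested on 21 to 34 CM wells and 43 to 105 NCM wells per animal.

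In endothelial-like wells 1 of 10 was called, against 1.8% of 11375 genes called lower in the CM fraction. This was Junb, with 136 and 55.5 UPM in KO CM wells and 96.6 and 51.8 in WT CM wells, against 287 and 393 in KO NCM wells and 240 and 277 in WT NCM wells (log2 difference -1.42, SE 0.36, adjusted p = 0.0383 by edgeR). Fosb differed by -2.40 (SE 0.82) and Ier2 by -1.31 (SE 0.38), with adjusted p of 0.123 and 0.0658. Different clusters supplied most of this class, cluster 5 in the CM fraction and cluster 4 in the NCM fraction. Cluster 5 had 4 endothelial markers among its leading genes against wells of the same chips, but 3 cardiomyocyte and no endothelial markers against all other wells. Cardiomyocyte markers took 2.14 and 5.24% of UMIs in KO endothelial-like CM wells and 3.36 and 5.56% in WT ones, against 0.226 and 0.431% in KO endothelial-like NCM wells and 0.144 and 0.269% in WT ones. In macrophage-like CM wells they took 0.946 and 3.85% in KO animals and 2.80 and 3.63% in WT animals. The part of this RNA in the member levels of those wells was not tested.

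**Figure D2:**
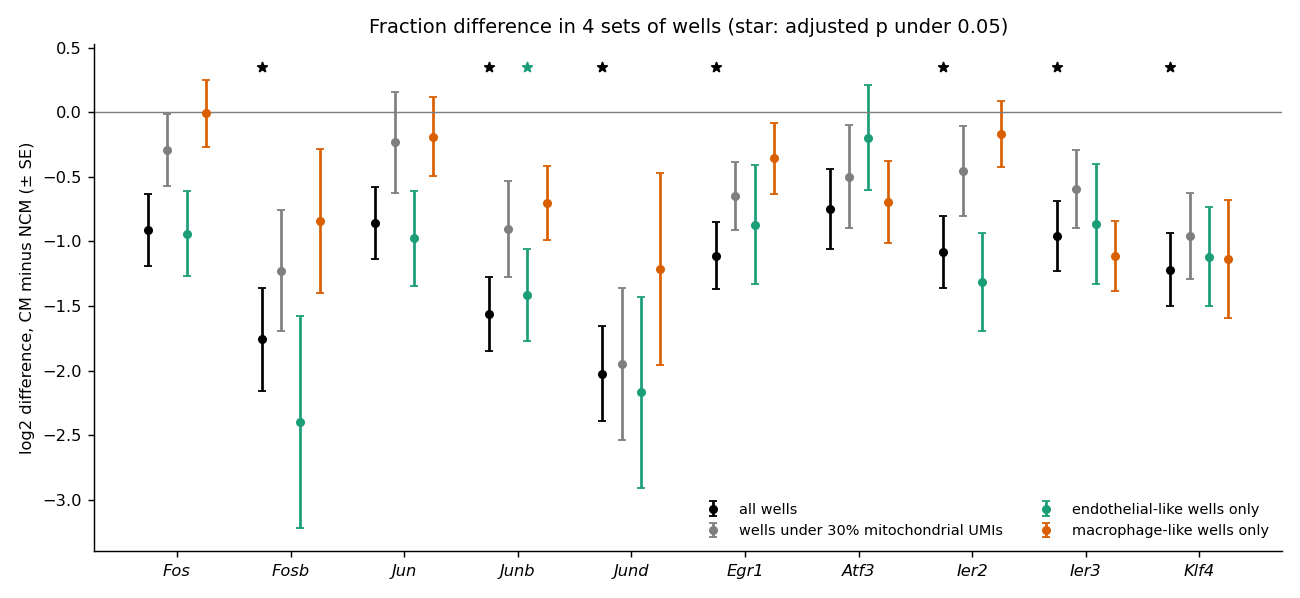
Log2 difference of each member between the CM and NCM fractions (CM minus NCM, ± SE) from 4 fits, in all wells, in wells under 30% mitochondrial UMIs, in endothelial-like wells and in macrophage-like wells, with a star where the adjusted p was under 0.05. All points lie below 0, and the macrophage-like points lie closest to 0 for Fos (-0.01), Jun (-0.19) and Ier2 (-0.17).

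CM wells were also less often positive for a member, counting wells with at least 1 UMI. They were deeper (median 74418 UMIs outside mitochondrial and haemoglobin genes) than NCM wells (median 41300). With each well thinned to 5000 UMIs, 1128 CM and 2827 NCM wells could be used and 35 were too shallow. A Fos UMI was found in 30.5% of CM wells (exact 95% interval 27.8 to 33.3, counting error only) against 57.4% of NCM wells (55.5 to 59.2). Before thinning the shares were 59.2 and 87.2%. For Jund the thinned shares were 2.84% of CM wells (1.95 to 3.98) and 16.9% of NCM wells (15.5 to 18.3), and for Junb 24.6% (22.2 to 27.3) and 69.4% (67.7 to 71.1). For all 10 genes the 4 CM shares lay below the 4 NCM shares, thinned or not. The share of all genes that did so was not counted. On plain totals, the scale that thinning uses, the median log2 difference over all genes tested was -0.76. At least 5 of the 10 members were found in 9.40% of CM wells and 36.3% of NCM wells, and none of them in 24.7% of CM wells and 1.91% of NCM wells.

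Any background in these shares could not be separated from expression. In cluster 16, an unnamed NCM cluster led by red cell genes (Bpgm, Alas2 and Fech among them), a Fos UMI was found in 61.8% of 55 KO1 wells and 57.3% of 124 KO2 wells after thinning. The median depth there was 20323 and 36323 UMIs outside mitochondrial and haemoglobin genes. These shares are as high as in NCM wells as a whole, so a Fos UMI in an NCM well was not read as expression by that cell. The summed level of the members was 2731 and 2697 UPM in that cluster. The cluster held 57 KO1 and 128 KO2 wells, against 2 WT1 and 4 WT2 wells. Haemoglobin genes took a median of 25.3% of UMIs in its KO1 wells and 35.35% in its KO2 wells. Whether these wells also held another cell was not tested.

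**Figure D3:**
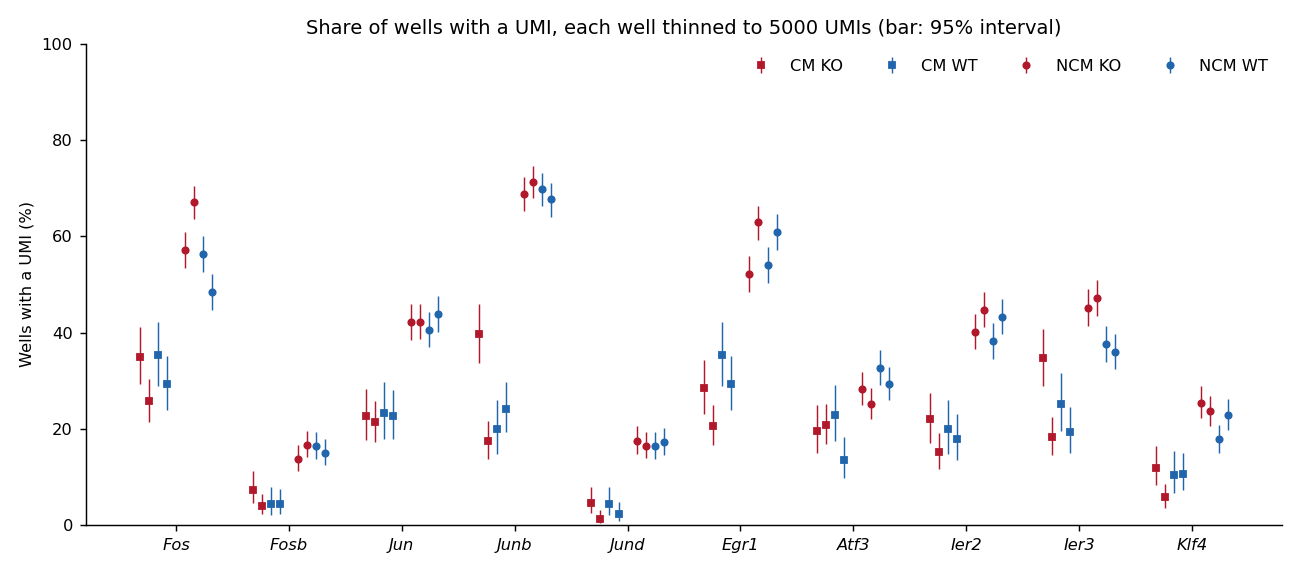
Share of wells (%) with at least 1 UMI of each member after thinning each well to 5000 UMIs, per animal, with exact 95% intervals, as CM (squares) and NCM (circles) wells of KO (red) and WT (blue) hearts. For each gene all CM squares lie below all NCM circles, with Fos at 30.5% of all CM wells and 57.4% of all NCM wells. The share of all genes that did so was not counted.

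Levels by class are given as a description, without a test. Cardiomyocyte-like wells of the CM fraction had a summed level of 1036 and 335 UPM in KO animals against 388 and 493 in WT animals. Macrophage-like wells of the same chips had 2472 and 1842 against 2181.55 and 1952, so all 4 macrophage-like values lay above all 4 cardiomyocyte-like values. The share of all genes that did so was not counted. Endothelial-like CM wells had 1338 and 540 in KO animals against 962 and 494 in WT animals, which overlapped the cardiomyocyte-like range. KO1 was the highest cardiomyocyte-like animal for 9 of the 10 members. Klf4, at 21.1 in KO1 and 24.03 in WT2, was the exception. The class joined clusters 2, 12 and 13, and the last 2 were named only against all other wells, by 3 markers each. Cluster 12 held 132 of 135 KO1 and 212 of 260 KO2 wells, against 84 of 117 WT1 and 102 of 191 WT2 wells. The KO1 wells were also the shallowest, with a median of 20639 UMIs outside mitochondrial and haemoglobin genes against 52265 to 128538 in the other 3 animals. Their mitochondrial share was 59.0%, against 38.6 to 47.9%, and their cardiomyocyte markers took 4.78%, against 6.92 to 7.89%. The part of these differences in the KO1 levels was not tested.

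In the NCM fraction the order of the named classes by summed level was macrophage-like, neutrophil-like, endocardial-like, fibroblast-like and endothelial-like, and each class overlapped the next over animals. Macrophage-like wells had 3548 and 4172 UPM in KO animals against 2771 and 3124 in WT animals. Endothelial-like wells had 2282 and 2529 in KO animals against 1565 and 2353 in WT animals. Unnamed clusters 6, with class II genes, and 0, led by Ankrd29, Pygl and Rnpep, had higher means than both, 4154 (SD 559, n = 3 animals) and 3789 (SD 723, n = 4), with ranges that overlapped the macrophage-like one.

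Atf3 was highest in the macrophage-like class among the named classes with levels, by a narrow margin. Its lowest value there was 408 in WT2, against 402 in endocardial-like WT2 wells. KO1 had 13 endocardial-like and KO2 19 neutrophil-like wells, too few for a level. The share of all genes that were highest in this way was not counted. Atf3 had 530 and 1105 UPM in macrophage-like KO wells against 484 and 408 in WT wells. All 4 values lay above those of neutrophil-like wells (198 in KO1, 175 and 391 in WT), endocardial-like wells (65.5 in KO2, 333 and 402 in WT), endothelial-like wells (117 to 160) and fibroblast-like wells (70.0 to 157). Unnamed clusters 6 (422 in KO1, 634 and 831 in WT animals) and 0 (149 to 501) overlapped it.

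Junb had its highest mean in neutrophil-like wells, with 608 UPM in KO1 against 926 and 502 in WT animals and no level for KO2. These values lay above the macrophage-like, endothelial-like and fibroblast-like ranges, and the share of all genes that did so was not counted. Endocardial-like wells (225 to 546) and unnamed clusters 0 (391 to 773) and 6 (291 to 756) overlapped them. Ier3 was also highest in neutrophil-like wells among named classes (503 in KO1, 349 and 318 in WT), but it overlapped macrophage-like wells (265 to 396). Egr1 stood highest among named classes in fibroblast-like wells, with 840 and 553 UPM in KO animals against 414 and 721 in WT animals. Its macrophage-like range (352 to 563) overlapped this, and so did its endothelial-like range (109 to 438).

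Klf4 had its highest mean in endothelial-like wells, 178 and 120 UPM in KO animals against 126 and 231 in WT animals. It overlapped endocardial-like (105 to 154), fibroblast-like (71.8 to 157), neutrophil-like (45.6 to 198) and macrophage-like wells (66.7 to 129). Unnamed clusters 0, 6 and 16 overlapped it too. Fos in named classes was highest in macrophage-like wells (592 to 1088) and lowest in endocardial-like wells (244 to 517), and every neighbour in that order overlapped. Jun was narrow in macrophage-like wells (250 to 263) and lay above fibroblast-like wells (175 to 212), and the share of all genes that did so was not counted. This narrow range lay within that of endothelial-like wells (201 to 354). The highest Jun value, 1680, came from 22 endocardial-like wells of WT2, against 323 in KO2 and 180 in WT1.

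Ier2 (216 to 466), Fosb (17.7 to 141) and Jund (14.2 to 51.0) overlapped among the endothelial-like, fibroblast-like and macrophage-like classes. Within animals the members also varied from well to well. In KO1 NCM wells the Fos level had a median of 165 and a 90th percentile of 2262 UPM, against a median of 181 and a 90th percentile of 1823 in WT1 NCM wells. Fosb had a median of 0 in each animal and fraction.

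**Figure D4:**
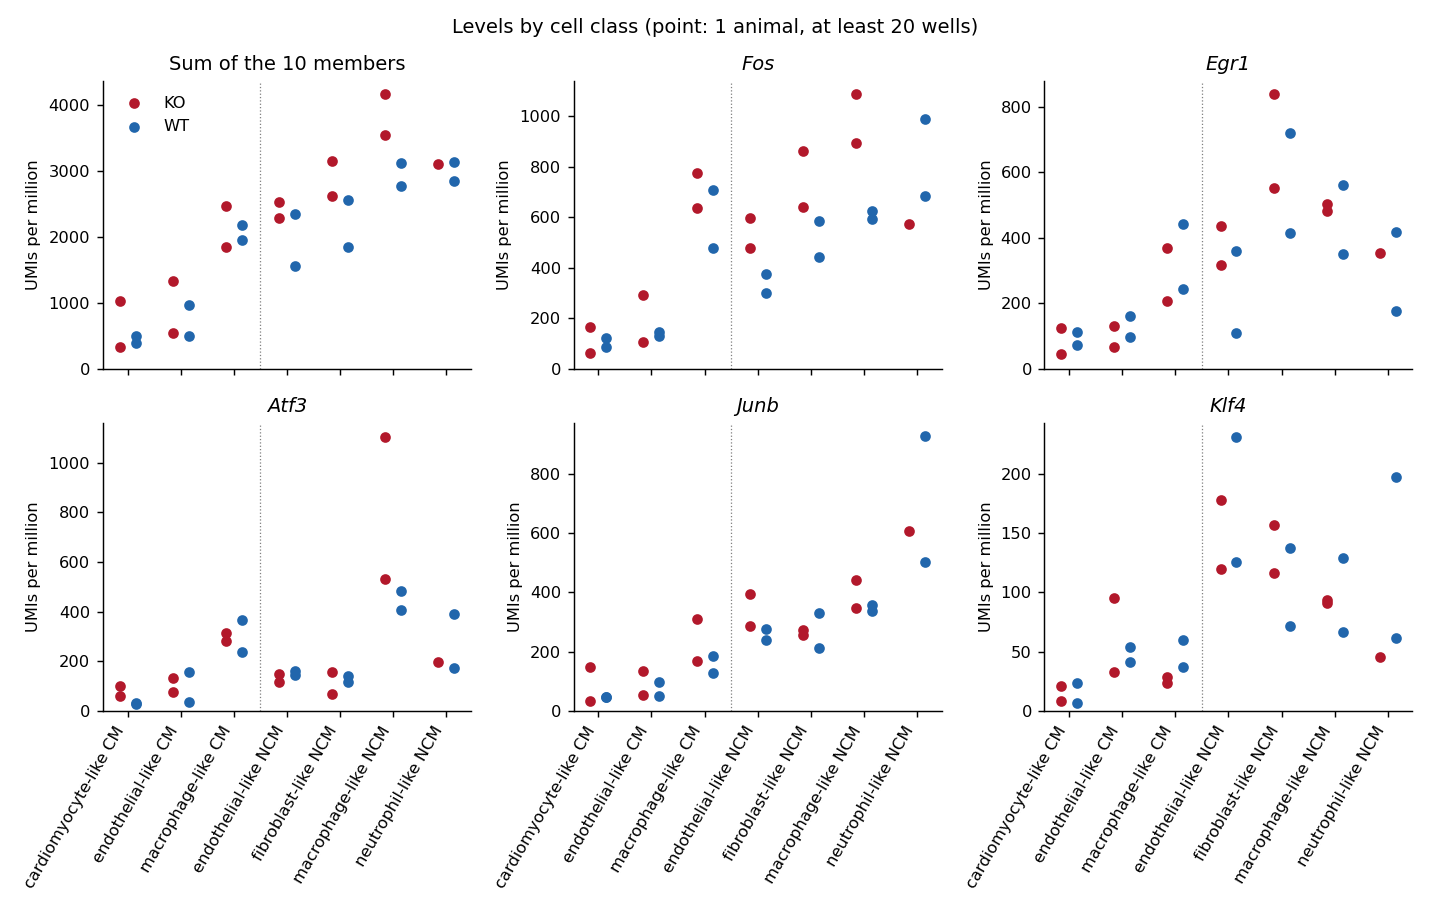
Summed level of the 10 members and levels of Fos, Egr1, Atf3, Junb and Klf4 in UPM (linear axes from 0) by cell class and fraction, each point 1 animal with at least 20 wells of the class, KO in red and WT in blue. Cardiomyocyte-like CM wells (335 to 1036) and endothelial-like CM wells (494 to 1338) overlap at the low end of the summed level. Macrophage-like NCM wells lie above the other NCM classes shown for Atf3 (408 to 1105).

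No member was called by edgeR between KO and WT hearts in either fraction or in any of the 4 classes tested. In the NCM fraction 0 of 17216 genes were called by edgeR (percent called 0). DESeq2 called 332 higher and 247 lower, none of them a member, and edgeR's unadjusted p was below 0.05 for 2075 genes (12.1%) and 0 members. Fos was 695 and 727 UPM in KO NCM wells against 550 and 592 in WT NCM wells (log2 difference 0.16, SE 0.20, adjusted p = 0.787 by edgeR). Atf3 was 214 and 239 against 280 and 291, with the lowest unadjusted p of the 10 (log2 difference -0.49, SE 0.22, adjusted p = 0.432 by edgeR).

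On the UPM scale both KO values lay above both WT values for Fos, Jund, Ier2 and Ier3, and below them for Fosb, Junb and Atf3. Of all genes tested, 26.9% lay above and 18.3% below in the same way. The fitted log2 differences (KO minus WT) were -0.44 for Fosb (SE 0.25), -0.18 for Jun (SE 0.24), -0.24 for Junb (SE 0.20) and 0.26 for Jund (SE 0.34). They were -0.15 for Egr1 (SE 0.27), 0.22 for Ier2 (SE 0.22), 0.25 for Ier3 (SE 0.21) and 0.13 for Klf4 (SE 0.38). In wells under 30% mitochondrial UMIs, which left 18 KO1 and 160 KO2 NCM wells against 645 WT1 and 570 WT2 NCM wells, all 10 differences were below 0. The part of the mitochondrial share in the genotype comparison was not tested.

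In the CM fraction 0 of 14462 genes were called by edgeR (percent called 0). DESeq2 called 28 higher and 20 lower, none of them a member, and edgeR's unadjusted p was below 0.05 for 498 genes (3.44%) and 0 members. The KO and WT values of all 10 members overlapped on the UPM scale. Of all genes tested, 15.8% had both KO values above both WT values and 12.7% had both below, and the others overlapped too. The differences lay between -0.53 for Jun (SE 0.48) and 0.54 for Ier3 (SE 0.50), each with an adjusted p of 0.999 by edgeR. Without KO1 all 10 were below 0, and without KO2 8 of 10 were above 0, so the direction rested on which KO animal was kept. The KO effect was not found to differ between the fractions for any member. For that difference 0 of 17509 genes were called by edgeR (percent called 0). DESeq2 called 86 and 30 genes in the 2 directions, none of them a member, and edgeR's unadjusted p was below 0.05 for 866 genes (4.95%) and 0 members.

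Within fibroblast-like NCM wells Ier2 was 387 and 466 UPM in KO animals against 227 and 216 in WT animals (log2 difference 0.79, SE 0.25). Its unadjusted p was 0.0184 in edgeR's fit and its adjusted p 0.470, so it was not called among 14245 genes (percent called 0), of which 9.89% had an unadjusted p under 0.05. Within macrophage-like NCM wells Fosb was 62.1 and 66.7 in KO animals against 141 and 129 in WT animals (log2 difference -1.22, SE 0.43, adjusted p = 0.499 by edgeR). Atf3 differed by 0.76 there (SE 0.45, adjusted p = 0.646 by edgeR), with 1105 in KO2 setting it apart from 530 in KO1.

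Within endothelial-like NCM wells the largest difference was that of Fosb, at 56.3 and 75.9 UPM in KO animals against 17.7 and 36.5 in WT animals (log2 difference 1.14, SE 0.69, adjusted p = 0.671 by edgeR). Within cardiomyocyte-like CM wells Ier3 was 201 and 45.2 in KO animals against 37.2 and 48.2 in WT animals (log2 difference 1.28, SE 0.62, adjusted p = 0.932 by edgeR). These are the wells in which KO1 was shallow, high in mitochondrial UMIs and almost all of cluster 12. Without KO2 the log2 difference of Ier3 was 1.90, and that fit rests on a single KO animal whose spread is assumed to be like that of WT. Atf3 was 99.3 and 59.98 in KO cardiomyocyte-like wells against 30.4 and 33.6 in WT ones (log2 difference 1.14, SE 0.40, adjusted p = 0.932 by edgeR). In these classes edgeR called 0 of 12229 macrophage-like, 12428 endothelial-like and 12476 cardiomyocyte-like genes. Its unadjusted p was below 0.05 for 9.31, 8.68 and 4.67% of genes, among them Fosb in macrophage-like and Atf3 in cardiomyocyte-like wells. DESeq2 called 248 higher and 103 lower in macrophage-like, 136 and 122 in endothelial-like, 55 and 20 in cardiomyocyte-like and 231 and 111 in fibroblast-like wells, and 0 members. Neutrophil-like wells were not tested, since KO2 had 19 such wells.

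Over the 4 classes, both KO values lay above both WT values for 5 members in fibroblast-like wells (Fos, Fosb, Jund, Ier2 and Ier3), 5 in endothelial-like wells (Fos, Fosb, Junb, Jund and Ier3), 4 in macrophage-like wells (Fos, Atf3, Ier2 and Ier3) and 2 in cardiomyocyte-like wells (Atf3 and Ier2). The share of all tested genes that did so was 24, 25.1, 20.9 and 20.4% in the same order of classes. Both KO values lay below both WT values for Ier2 in endothelial-like wells (257 and 224 against 273 and 350) and for Fosb in macrophage-like wells, where 15.7 and 19.8% of tested genes did so. Markers of other cell types moved with genotype inside these classes. In macrophage-like NCM wells endothelial markers took 0.322 and 0.177% of UMIs in KO animals against 0.0400 and 0.0473% in WT animals. Fibroblast markers took 0.184 and 0.278% there in KO animals and 0.122 and 0.112% in WT animals. The class's own markers took 0.754 and 0.783% in KO animals and 0.872 and 1.26% in WT animals. Endothelial markers in fibroblast-like wells took 0.174 and 0.106% in KO animals against 0.0396 and 0.0458% in WT animals. Macrophage markers in endothelial-like wells took 0.170 and 0.144% in KO animals against 0.0923 and 0.0935% in WT animals. The part of these markers, and of the mitochondrial and haemoglobin shares that moved with genotype in the NCM fraction, was not tested.

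Other genes known for early responses were lower in the CM fraction too. Their list and those below were chosen with earlier results of these data known. Of 37 listed genes 36 were tested, all 36 were lower in the CM fraction and 19 were called lower (6.61% of all genes were), with a median log2 difference of -1.17 against -0.22 over all genes tested. The 19 were Cebpd, Gadd45b, Nfkbia, Zfp36, Klf2, Nr4a1, Btg1, Socs3, Nfkbiz, Nr4a3, Cebpb, Errfi1, Ppp1r15a, Csrnp1, Per1, Btg2, Ier5, Klf6 and Mcl1. Cebpd, a C/EBP factor, was 53.1 and 15.6 UPM in KO CM wells and 21.3 and 21.3 in WT CM wells, against 176 and 141 in KO NCM wells and 101 and 159 in WT NCM wells (log2 difference -1.97, SE 0.27, adjusted p = 0.00172 by edgeR). Zfp36, which encodes the mRNA-decay factor tristetraprolin, was 153 and 54.1 in KO CM wells and 126 and 82.6 in WT CM wells, against 486 and 430 in KO NCM wells and 431 and 427 in WT NCM wells (log2 difference -1.66, SE 0.24, adjusted p = 0.00236 by edgeR).

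Of 8 further AP-1 partners, 5 were called lower in the CM fraction and 0 higher, against 6.61 and 9.46% of all genes. Among them were Batf (log2 difference -3.31, SE 0.56), Jdp2 (-2.11, SE 0.43), Maf (-1.62, SE 0.34) and Atf4 (-1.04, SE 0.27). Batf is known from immune cells. Of 13 upstream factors and kinases none was called by edgeR. Elk3 (-1.35, SE 0.46) and Mrtfa (-1.05, SE 0.72) were lowest, and Srf (0.64, SE 0.36) and Mapk8 (0.57, SE 0.39) highest, and 3 of the 13 had an unadjusted p under 0.05, all lower, against 30.9% of all genes in either direction.

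Heat shock genes, also known to respond to dissociation, were divided in direction. Of 12 genes, 7 were higher and 5 lower in the CM fraction, with a median log2 difference of 0.10. Of these 3 were called higher and 1 lower, against 9.46 and 6.61% of all genes. The other 4 on the lower side were Hspa1a (-0.59, SE 0.33), Dnajb1 (-0.77, SE 0.34), Dnaja1 (-0.64, SE 0.24) and Hsp90aa1 (-0.21, SE 0.23), none called. The small heat shock protein gene Hspb1 was 775 and 490 UPM in KO CM wells and 312 and 259 in WT CM wells, against 255 and 124 in KO NCM wells and 112 and 166 in WT NCM wells (log2 difference 1.96, SE 0.29, adjusted p = 0.00251 by edgeR). The mitochondrial chaperonin genes Hspd1 (1.13, SE 0.25) and Hspe1 (0.94, SE 0.22) were also higher. The inducible gene Hspa1b was lower (-1.10, SE 0.30, adjusted p = 0.0385 by edgeR), at 233 and 69.4 in KO CM wells and 68.3 and 33.4 in WT CM wells, against 654 and 287 in KO NCM wells and 101 and 184 in WT NCM wells.

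Between KO and WT none of the genes on these 4 lists was called by edgeR in either fraction, where edgeR called no gene at all. In the NCM fraction the largest differences among the other early response genes were Ccn2 (1.21, SE 0.28) and Klf2 (1.09, SE 0.31) above 0 and Ppp1r15a (-0.91, SE 0.22) and Btg2 (-0.89, SE 0.32) below it. Those among the heat shock genes were Hspa1a (1.65, SE 0.39) and Hspa1b (1.53, SE 0.44) above 0 and Dnaja1 (-0.71, SE 0.25) and Hspe1 (-0.51, SE 0.23) below it. Elk3 (1.08, SE 0.36), Mapk14 (0.92, SE 0.37), Mrtfa (-0.79, SE 0.69) and Map2k1 (-0.10, SE 0.31) were the extremes of the upstream list. Among the AP-1 partners Jdp2 (0.64, SE 0.38) and Atf4 (0.25, SE 0.27) lay highest, and Atf2 (-0.31, SE 0.34) lay below 0.

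In the CM fraction the extremes were Gadd45g (1.65, SE 0.56), Ccn2 (1.05, SE 0.34), Fosl1 (-1.52, SE 1.54) and Trib1 (-1.37, SE 0.51) among the other early response genes. They were Hspa1b (1.38, SE 0.56), Hspa1a (1.34, SE 0.68), Dnajb4 (-0.23, SE 0.57) and Hspe1 (-0.23, SE 0.42) among the heat shock genes. The upstream list ran between Elk1 (1.498, SE 1.08) and Mapk3 (0.75, SE 0.70) above 0 and Mapk8 (-0.72, SE 0.48) and Mapk14 (-0.54, SE 0.37) below it. Among the AP-1 partners only Mafk (0.44, SE 0.73) was above 0, followed by Atf2 (-0.16, SE 0.52), with Batf (-1.41, SE 1.13) and Batf3 (-1.40, SE 1.85) lowest.

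Within a class the members varied together from well to well, weakly on average and unevenly between classes. Spearman's rho was taken over thinned wells within 11 sets of wells of 1 animal and class, 1374 wells in all, and averaged. Wells of a set share a chip and differ in depth and in mitochondrial share, so these values are descriptions. Egr1 followed the sum of the other 9 members most closely (mean rho 0.30, above 0 in 11 of 11 sets) and Jund least (0.06, above 0 in 8 of 11). Junb (0.28), Fos (0.27), Jun (0.24), Ier2 (0.23) and Atf3 (0.21) lay between. Ier3 (0.15), Klf4 (0.14) and Fosb (0.10) were lower. In endothelial-like sets rho ran between -0.05 and 0.16 for Fos and between 0.03 and 0.20 for Egr1. In fibroblast-like sets it ran between 0.29 and 0.51 for Fos and between 0.38 and 0.51 for Egr1. The macrophage-like and neutrophil-like sets came from WT animals only. The closest pair was Junb with Egr1 (mean rho 0.23).

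The genes outside the members whose level followed their sum most closely were Zfp36 (mean rho 0.28), Btg2 (0.25), the metallothionein gene Mt1 (0.24), the phosphatase gene Dusp1 (0.23) and the chemokine gene Cxcl1 (0.20). Nfkbia (0.20), Csrnp1 (0.17), Ier5 (0.17), Nfkbiz (0.16) and Gadd45g (0.16) followed. Of these 10, 8 stood on a companion list, each on that of other early response genes. Of the 3120 genes compared, 42 stood on any companion list. The lists were chosen with earlier results of these data known. The median over the 3120 genes was -0.02 and the 95th percentile 0.06. Over the same wells the summed member level followed the mitochondrial share (mean rho 0.14, above 0 in 11 of 11 sets) and ran against the UMIs outside mitochondrial and haemoglobin genes (mean rho -0.16, above 0 in 1 of 11 sets).

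**Figure D5:**
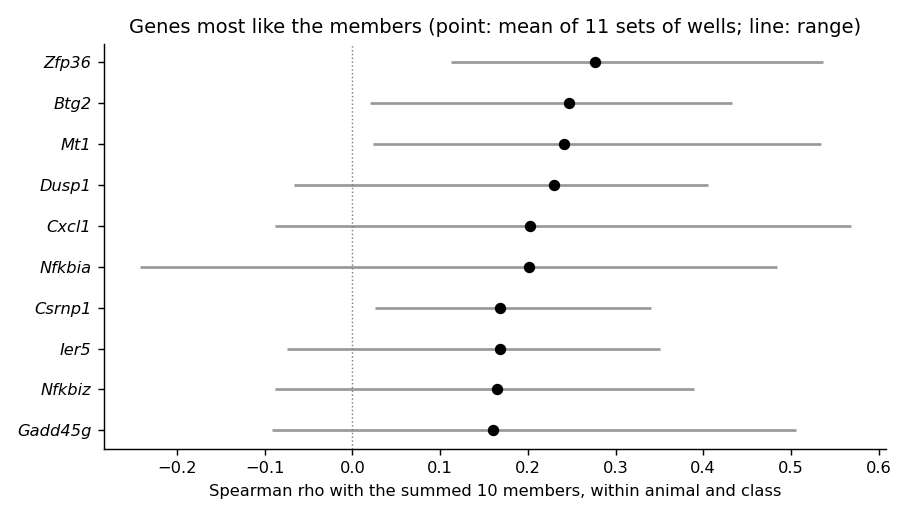
The 10 genes whose level followed the summed members most closely, as mean Spearman's rho (point) and range (line) over 11 sets of wells, each of 1 animal and class. Zfp36 leads at 0.28, and the range of several genes crosses 0.

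Chips were filled from source wells in a recorded order. Over the 4 source wells of each animal the summed NCM level ran between 2721 and 3186 UPM in KO1 and between 2514 and 3420 in KO2, against 2392 to 2505 in WT1 and 2813 to 3514 in WT2. In the CM fraction it ran between 1500 and 1801 in KO1 and between 473 and 606 in KO2, against 988 to 1298 in WT1 and 620 to 951 in WT2. KO1 was dispensed before KO2 on the KO chips, while the WT animals alternated, so order and animal cannot be told apart among KO wells.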

How the data were processed

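Single heart cells in chip wells were measured by RNA sequencing. The deposited tables hold UMI counts per gene and well. The submitters' processing notes name STAR 2.5.2b, featureCounts, Subread 1.4.6-p1 and mm10. The strand setting, annotation release and UMI rule they leave unstated (not given in the sources used here). Left out were 70 spike-in columns (4.98e-05% of UMIs).

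Kept wells were clustered with scanpy 1.11.5 on 2000 variable genes, without the members, companion lists, mitochondrial and haemoglobin genes, and named from fixed markers. Of 17 clusters, 4 with 1127 wells stayed unnamed. Scrublet called 27 doublets, which stayed in. Libraries shared 60 to 400 barcodes, which stand for well positions. UMI counts were summed per animal and fraction, and per class where at least 20 wells were present. They were tested with edgeR 4.0.16 (TMM, filterByExpr, animal as a block for the fraction) in R 4.3.3, with DESeq2 1.42.0 as an alternative. Each SE beside an edgeR difference is the absolute log2 difference over the square root of its F statistic. It is not the spread between animals. The script was tested on simulated data. Counts cover sampling of UMIs only; depth ranges are in the report. Levels in UPM use plain totals, while tests use TMM.

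The fraction block was the animal, since per the deposited reports the same 4 animals gave both fractions. The members and lists were chosen with earlier results of these data known. Every comparison covers all 10 members; of companion genes, those called are named, otherwise the 2 largest differences in each direction; the 10 most alike genes are those of highest mean rho. Some genes that this rule would name are not reported here.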

Additional observations from a re-analysis of the deposited data

Results flagged for a closer look

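The difference between KO and WT pointed in opposite directions in different classes for Fosb and Ier2. In each class named here both KO values lay on one side of both WT values. Genotype and chip cannot be told apart in these wells. The difference between classes was not tested. For Fosb the log2 difference (KO minus WT) was 0.20 in fibroblast-like (SE 0.41) and 1.14 in endothelial-like wells (SE 0.69). In macrophage-like wells it was -1.22 (SE 0.43). For Ier2 it was 0.79 in fibroblast-like (SE 0.25), 0.24 in macrophage-like (SE 0.34) and 1.21 in cardiomyocyte-like wells (SE 0.58). In endothelial-like wells it was -0.53 (SE 0.33). None of these was called by edgeR. Both KO values lay above both WT values for 24% of tested genes in fibroblast-like and 25.1% in endothelial-like wells. The same held for 20.9% in macrophage-like and 20.4% in cardiomyocyte-like wells. Both lay below for 15.7% in endothelial-like and 19.8% in macrophage-like wells. With 1 animal left out, Fosb in fibroblast-like and Ier2 in macrophage-like wells changed sign. Markers of other cell types differed by genotype in these classes: endothelial markers took 0.322 and 0.177% of UMIs in macrophage-like KO wells against 0.0400 and 0.0473% in WT wells, and macrophage markers 0.170 and 0.144% in endothelial-like KO wells against 0.0923 and 0.0935% in WT wells. Their part was not tested.

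KO1 stood far above the other 3 animals for Junb (149 UPM), Ier2 (137 UPM) and Ier3 (201 UPM) in cardiomyocyte-like CM wells and for Jund (13.9 UPM) in endothelial-like CM wells, where its gap to the next animal was past Dixon's 95% critical share of the range. These were 4 of 90 sets of 4 animals, where chance gives about 1 in 20. KO1 was also the shallowest animal in both, with a median of 20639 UMIs outside mitochondrial and haemoglobin genes in cardiomyocyte-like wells and 26069 in endothelial-like wells, and the part of depth was not tested. In the sums over whole fractions no animal met that criterion for any member.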

How the results depend on the processing

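The count of members called between the CM and NCM fractions was 7. It was 6 with RLE size factors (5.56% of all genes called lower), 10 with library totals (19.3%), 9 with no filter on low counts (5.36%), 8 with DESeq2 (13%), 7 in wells of at least 20000 UMIs and 7 with no replicate block (the value of 7 comes from a fit that pairs the fractions of an animal). It was 0 in wells under 30% mitochondrial UMIs, 1 in WT animals only, 0 in KO animals only, 0 in macrophage-like wells and 1 in endothelial-like wells (both class fits chosen after seeing the data), and 2 to 7 with 1 animal left out. Over all genes, library totals moved the median fraction difference to -0.76, against -0.22 with TMM, and turned 1460 higher and 1021 lower calls into 1052 higher and 2974 lower. The same change moved the median KO difference to 0.16 in the NCM fraction and 0.13 in the CM fraction. All 10 differences stayed below 0 in each of these settings. Genes called numbered 2307 higher and 2012 lower with DESeq2, 562 and 156 under 30% mitochondrial UMIs, and 890 to 1674 higher and 358 to 1052 lower with 1 animal left out.

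Between KO and WT 0 members were called in each setting that kept every animal. A fit with 1 animal left out rests on a single animal of that genotype, so only its differences are given. With no filter on low counts edgeR called 113 genes higher and 113 lower in the NCM fraction and 21 and 26 in the CM fraction, against 0 in each with the filter. Signs of the KO differences did change, all of them uncalled. In wells under 30% mitochondrial UMIs these were Fos -0.0046, Jund -0.46, Ier2 -0.11, Ier3 -0.19 and Klf4 -0.54 in the NCM fraction, and Fos 0.23, Jund -0.57 and Klf4 -0.46 in the CM fraction. With library totals they were Egr1 0.011 (NCM), Fos 0.081 (CM), Jun 0.081 (fibroblast-like), Junb 0.18 and Egr1 0.10 (macrophage-like), and Fos 0.11, Jun 0.22 and Jund 0.040 (cardiomyocyte-like). With RLE size factors they were Jund -0.0077 and Klf4 -0.0019 (CM) and Junb 0.050 (macrophage-like), and with DESeq2 Jund -0.0086, Klf4 -0.0019 and Junb 0.050 in the same wells. The causes were not tested.

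With 1 animal left out, these differences changed sign. In the NCM fraction Jun ran between -0.40 and 0.069, Egr1 between -0.46 and 0.22, and Klf4 between -0.32 and 0.76. In the CM fraction Fos ran between -0.74 and 0.33, Fosb between -0.91 and 1.11, Junb between -0.43 and 0.80, Jund between -0.98 and 0.60, Atf3 between -0.37 and 0.76, Ier2 between -0.48 and 0.67, Ier3 between -0.18 and 1.02, and Klf4 between -0.71 and 0.50. In fibroblast-like wells Fosb ran between -0.12 and 0.41, Jun between -0.27 and 0.10, Junb between -0.54 and 0.19, Egr1 between -0.28 and 0.61, Atf3 between -1.01 and 0.031, and Klf4 between -0.23 and 0.80. In endothelial-like wells Jun ran between -0.65 and 0.17, Junb between -0.088 and 0.50, Egr1 between -0.10 and 1.63, and Klf4 between -0.83 and 0.056. In macrophage-like wells Junb ran between -0.053 and 0.029, Jund between -0.52 and 0.12, Egr1 between -0.44 and 0.36, Atf3 between -0.059 and 1.26, Ier2 between -0.037 and 0.52, Ier3 between -0.11 and 0.32, and Klf4 between -0.73 and 0.34. In cardiomyocyte-like wells Fos ran between -0.76 and 0.32, Fosb between -0.53 and 1.59, Jun between -0.80 and 0.48, Junb between -0.44 and 1.31, Jund between -1.37 and 0.43, Egr1 between -0.9962 and 0.11, and Klf4 between -0.99 and 0.86.

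Averaging wells equally moved 64 of 128 levels by more than the spread between the animals of a genotype or had no such spread, and leaving out doublets moved 6. Without thinning, 88 shares moved beyond their intervals. All 10 members stayed lower in the 4 CM values under each. Fits of single classes in wells under 30% mitochondrial UMIs and of neutrophil-like wells were not run, because a class sum held under 20 wells. That minimum was not set for whole fractions, and KO1 had 18 NCM wells under 30% mitochondrial UMIs. With 2 animals a genotype, these data cannot tell a difference between genotypes from one between chips, and the part of dissociation was not tested.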
